A study of Homo sapiens with 6 samples.

Results

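The 10 genes described here belong to the Wnt/beta-catenin pathway and were taken by name: CTNNB1, TCF7, LEF1, AXIN2, NKD1, RNF43, ZNRF3, NOTUM, LGR5 and GLUL. All 10 were among the 59608 genes of the table. RNA was sequenced from HepG2, an established human liver cancer cell line known to carry a deletion in CTNNB1 that activates beta-catenin. The study asks what the sugar modification O-GlcNAc on the zinc finger transcription factor VEZF1 does in liver cancer cells. In every library, endogenous VEZF1 had been targeted with an sgRNA carried by a lentivirus, and a form of VEZF1 had then been put back. The VEZF1-WT group received the wild-type protein (3 libraries). The VEZF1-2A group received a protein in which a pair of serines, among several candidate O-GlcNAc sites, is alanine (3 libraries). The comparison of the groups therefore asks whether Wnt genes differed between cells with the wild-type and the mutated form. The paper reports that the mutation strongly lowered O-GlcNAc on VEZF1 and also made the protein less stable. The amount of VEZF1 protein cannot be read from RNA counts. Unedited cells and cells without VEZF1 put back were not analysed here, and the sources used here do not say whether the edited cells were 1 clone or a pool, or whether the 3 libraries of a group came from separate cultures. The p-values below then measure only the spread between these libraries, which may be technical.

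In the absence of a Wnt signal, beta-catenin is bound by a complex of axin, APC and kinases, phosphorylated and degraded. When a Wnt ligand engages Frizzled and LRP receptors, or when beta-catenin has lost the residues that are phosphorylated, the protein accumulates, enters the nucleus and acts with TCF/LEF factors on target genes. Many of these targets encode brakes on the pathway itself, such as AXIN2, NKD1, RNF43, ZNRF3 and NOTUM. In the liver the pathway is known for perivenous gene expression, of which glutamine synthetase, the product of GLUL, is a classic example.

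On GRCh38, the build named in the submitters' processing notes, the table places CTNNB1 at chr3:41194741-41260096, TCF7 at chr5:134114681-134151865, ZNRF3 at chr22:28883572-29057488, NKD1 at chr16:50548396-50649249 and LGR5 at chr12:71439798-71586310, all on the plus strand. On the minus strand are AXIN2 at chr17:65528563-65561648, RNF43 at chr17:58353676-58417595, NOTUM at chr17:81952507-81961840, LEF1 at chr4:108047545-108168956 and GLUL at chr1:182378098-182392206. RefSeq promoters (GRCh38.p14, 250 bases before a start site and 50 from it onward) were at hand for 5 of the 10 genes, with 8 start sites in all. The TCF/LEF core, searched on both strands as CTTTG followed by 2 bases that are each A or T, was present in 1 of these 8 windows and in 13.8% of all 35116 RefSeq promoters. A run of 6 G bases on either strand (GGGGGG), the kind of sequence VEZF1 is known to bind, was present in 2 of the 8 and in 18.8% of all. No letters of either motif overlapped the other's matches. The 3 stretches below hold these matches, and each holds a match of 1 kind only. They are shown for the letters known for the pathway's own factors and for VEZF1. Each is the part of the 250 upstream bases that lies outside annotated exons. Both TCF7 stretches lie inside the gene's span and between its exons, and the RNF43 stretch begins directly upstream of the gene. Capitals mark the matches, and each line is 5′ to 3′ on the strand of the gene.
TCF7, chr5:134115388-134115562, plus strand, upstream of the start at 134115613: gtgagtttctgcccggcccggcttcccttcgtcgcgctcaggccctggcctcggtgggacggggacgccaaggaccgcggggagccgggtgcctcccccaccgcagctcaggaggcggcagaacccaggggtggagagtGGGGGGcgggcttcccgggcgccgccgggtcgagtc
TCF7, chr5:134123368-134123617, plus strand, upstream of the start at 134123618: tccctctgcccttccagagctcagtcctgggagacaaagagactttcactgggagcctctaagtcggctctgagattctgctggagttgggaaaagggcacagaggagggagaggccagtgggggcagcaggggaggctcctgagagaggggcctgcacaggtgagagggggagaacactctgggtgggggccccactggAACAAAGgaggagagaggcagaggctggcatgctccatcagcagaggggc
RNF43, chr17:58417596-58417784, minus strand, upstream of the start at 58417534: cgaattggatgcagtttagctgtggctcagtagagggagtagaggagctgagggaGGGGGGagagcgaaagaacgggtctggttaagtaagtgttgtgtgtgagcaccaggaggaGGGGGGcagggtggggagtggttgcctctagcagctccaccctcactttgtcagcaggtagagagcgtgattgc
The capitals are a G run in the first TCF7 stretch, the TCF/LEF core read on the minus strand in the second, and a pair of G runs in the RNF43 stretch. These matches are letters in a window and do not show binding.

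The libraries held between 28756765 and 57199396 counts. The level of VEZF1 itself was 59.3, 45.6 and 40.0 CPM (counts per 1000000 counts of the library, scaled by TMM factors) in VEZF1-WT libraries 1, 2 and 3, and 46.2, 48.6 and 38.9 CPM in VEZF1-2A libraries 1, 2 and 3. The groups overlapped, and these counts do not separate the targeted gene from the form put back. The replicate 3 libraries of the groups were more alike than any other of the 15 pairs (Pearson's r of log expression across genes 0.9927). The next pair, VEZF1-WT replicates 1 and 3, was close at 0.9921, while VEZF1-2A replicate 3 had 0.9866 and 0.9879 with replicates 1 and 2 of its own group, so results are also given without both replicate 3 libraries. All 9 liver markers checked were at 1 CPM or more, with a summed level of 15408 to 19630 CPM in VEZF1-WT and 14762 to 19088 CPM in VEZF1-2A. Of the markers of other cells, 2 of 6 fibroblast, 1 of 5 endothelial and 2 of 5 leukocyte genes reached 1 CPM, the leukocyte sum of 657 to 776 CPM coming from CD68 and LYZ, while PTPRC and CD3E were near 0. The 8 proliferation genes summed to 1288 to 1646 CPM in VEZF1-WT and 1290 to 1686 CPM in VEZF1-2A. Across the 19111 genes with enough counts to be tested, the quasi-likelihood test of edgeR, adjusted by the Benjamini-Hochberg method, called 0 genes at an adjusted p under 0.05 and 408 at an unadjusted p under 0.05, where DESeq2 called 3 and 219 and limma voom 0 and 432.

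The Wnt genes were well expressed in HepG2 with a single exception, and none of the 9 that could be tested differed detectably between the VEZF1 forms. Of the 10 genes, 9 had enough counts to be tested, and LEF1 did not. Of these 9, edgeR called 0 at an adjusted p under 0.05 (background 0% of genes tested, adjusted p = 0.9996 for each of the 9) and 0 at an unadjusted p under 0.05 (background 2.13%, of which 0.832% higher and 1.3% lower in VEZF1-WT). The smallest unadjusted edgeR p was 0.247, for GLUL. The groups did not overlap for 1 of the 9, CTNNB1, against 7.36% of all genes tested. Of the 9 differences, 6 were positive, meaning higher in VEZF1-WT, and 3 negative, with a median log2 fold change of 0.02 beside 0.00 for all genes tested. The widest 95% interval among them reached 0.34 on the log2 scale, a 1.26-fold difference, so larger differences lay outside the interval of every tested gene. The plot of CPM by library and the plot of differences with their intervals show these values.

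**Figure D1:**
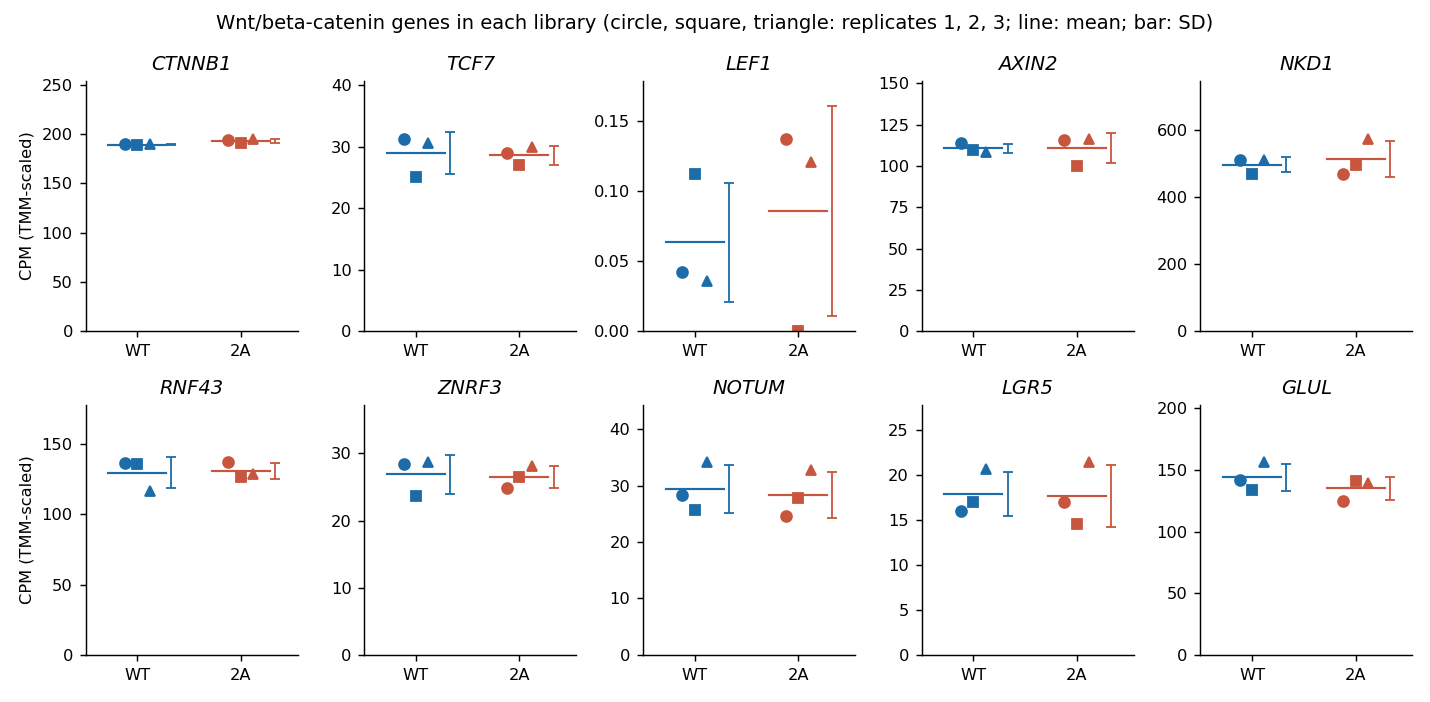
CPM of the 10 genes (vertical axes, each from 0 and with its own scale) in the 3 VEZF1-WT libraries in blue and the 3 VEZF1-2A libraries in red, with circle, square and triangle for replicates 1, 2 and 3, a line at the mean and a bar for the SD. The groups overlap for every gene but CTNNB1, whose points lie between 188.6 and 195.2 CPM, and LEF1 stays at or under 0.137 CPM.

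CTNNB1 encodes beta-catenin, the transducer of the pathway. Its level was 189.8, 188.6 and 189.5 CPM in VEZF1-WT libraries 1, 2 and 3, and 193.6, 190.8 and 195.2 CPM in VEZF1-2A libraries 1, 2 and 3. All 3 VEZF1-WT libraries were lower than all 3 VEZF1-2A libraries, an order seen in 3.86% of all genes tested. The means were 189.3 ± 0.630 and 193.2 ± 2.21 CPM (SD, n = 3 each), and the exact two-sided permutation test gave p = 0.1, the smallest that 3 against 3 can give. The log2 fold change was -0.03 (SE 0.050, 95% interval -0.14 to 0.08), with an unadjusted edgeR p of 0.565. The spread of CTNNB1 over all 6 libraries was very small, with a coefficient of variation of 1.36%. Only 0.162% of the genes tested had a smaller one, and the median over all genes tested was 10.6%. Counting error alone would give about 1.65% at these counts of 5642 to 10678, if each read pair was counted as 2. Even values made up 81.0% to 83.0% of those between 1 and 10 in each library, and 65.7% to 67.5% of those between 11 and 100. Not every pair can then have been counted as 2, so the counting error would be under 1.65%. Counts per gene do not tell the deleted CTNNB1 allele from the intact one.

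TCF7 and LEF1 encode members of the TCF/LEF family, the DNA-binding partners of beta-catenin. TCF7 was at 31.3, 25.1 and 30.7 CPM in VEZF1-WT libraries 1, 2 and 3, and at 28.9, 27.0 and 30.0 CPM in VEZF1-2A libraries 1, 2 and 3. The lowest and the highest library were both VEZF1-WT, so the VEZF1-2A values lay inside the VEZF1-WT range. The log2 fold change of TCF7 was 0.02 (SE 0.091, 95% interval -0.18 to 0.22), with an unadjusted edgeR p of 0.804 and an exact permutation p of 0.9. On the opposite strand, SKP1 shares 210 exon bases with TCF7, 2.08% of the TCF7 exon length, and had 390% as many counts. The strand setting is not given, so the TCF7 level could depend on how reads there were assigned. LEF1 was almost without reads: 2, 4 and 2 counts in VEZF1-WT libraries 1, 2 and 3, and 4, 0 and 4 counts in VEZF1-2A libraries 1, 2 and 3. With counts taken as independent, the count of 0 allows up to 3 counts, or 0.0758 CPM, in VEZF1-2A library 2. This limit would be higher if read pairs were counted as 2. The highest LEF1 level in any library was 0.137 CPM. LEF1 did not pass the filter on low counts, and fitted without that filter its log2 fold change was -0.42 with an SE of 1.28, so only a very large difference could have been seen. The intronic TCF7 start whose upstream stretch holds the TCF/LEF core could not be followed, since the table has 1 count per gene for all starts together.

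AXIN2, the scaffold that rebuilds the degradation complex and a widely used readout of the pathway, was at 113.9, 109.4 and 108.5 CPM in VEZF1-WT libraries 1, 2 and 3. In VEZF1-2A libraries 1, 2 and 3 it was at 115.4, 100.1 and 116.4 CPM. The VEZF1-2A group held both the highest and the lowest library, and the means were 110.6 ± 2.89 and 110.6 ± 9.13 CPM (SD, n = 3 each). The log2 fold change was 0.00 (SE 0.068, 95% interval -0.15 to 0.15), with an unadjusted edgeR p of 0.997 and an exact permutation p of 1.0, and its sign changed under other scalings. AXIN2 shares 1316 exon bases, or 25.2% of its exon length, with AC004805.1 on the same strand, so that reads there could be split between them. AC004805.1 had 30.5% as many counts as AXIN2 and a log2 fold change of -0.01.

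NKD1, a Dishevelled-binding antagonist, had the highest level of the 10 genes. It was at 512.6, 470.8 and 511.2 CPM in VEZF1-WT libraries 1, 2 and 3, and at 470.6, 497.4 and 575.1 CPM in VEZF1-2A libraries 1, 2 and 3. The lowest and the highest value were both in VEZF1-2A, and the VEZF1-WT values lay between them. The log2 fold change was -0.05 (SE 0.077, 95% interval -0.22 to 0.12), with an unadjusted edgeR p of 0.561 and an exact permutation p of 0.9. VEZF1-2A replicate 3 set the sign: the difference was 0.04 without that library. On the opposite strand, AC007608.1 shares 67 exon bases with NKD1, 0.386% of the NKD1 exon length, and had 21.7% as many counts.

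RNF43 and ZNRF3 encode related membrane ubiquitin ligases that remove Frizzled receptors from the cell surface. RNF43 was at 136.7, 135.3 and 116.6 CPM in VEZF1-WT libraries 1, 2 and 3, and at 136.7, 126.1 and 128.4 CPM in VEZF1-2A libraries 1, 2 and 3. A single library, VEZF1-WT replicate 3, was lower than the rest, and the log2 fold change was -0.01 (SE 0.072, 95% interval -0.17 to 0.15, unadjusted edgeR p = 0.892, exact permutation p = 0.8). It was 0.06 without that library and 0.03 without VEZF1-2A replicate 1. ZNRF3 was at 28.4, 23.6 and 28.6 CPM in VEZF1-WT libraries 1, 2 and 3, and at 24.8, 26.5 and 28.1 CPM in VEZF1-2A libraries 1, 2 and 3. The VEZF1-2A values of ZNRF3 lay inside the VEZF1-WT range, and its log2 fold change was 0.02 (SE 0.089, 95% interval -0.17 to 0.22, unadjusted edgeR p = 0.800, exact permutation p = 0.8). Per kilobase of exon, RNF43 was at 4.50 to 6.34 times the level of ZNRF3 in the 6 libraries. RNF43 shares 4326 exon bases, or 68.4% of its exon length, with AC004687.2 on the same strand, which had 51.5% as many counts, so its level depends on how shared reads were assigned. On the opposite strand, TSPOAP1-AS1 shares 345 exon bases with RNF43, 5.45% of the RNF43 exon length, and had 20.6% as many counts. Adding AC004687.2 to RNF43, and AC004805.1 to AXIN2, gave differences of -0.02 and -0.0028 on the log2 scale.

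NOTUM encodes a secreted enzyme that takes the lipid off Wnt proteins and so silences them. It was at 28.4, 25.7 and 34.1 CPM in VEZF1-WT libraries 1, 2 and 3, and at 24.7, 27.7 and 32.7 CPM in VEZF1-2A libraries 1, 2 and 3. Replicate 3 was the highest library of NOTUM in each group. The log2 fold change was 0.05 (SE 0.120, 95% interval -0.21 to 0.32), with an unadjusted edgeR p of 0.666 and an exact permutation p of 0.7.

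LGR5, a receptor for R-spondins and a stem cell marker in other tissues, was at 16.1, 17.0 and 20.7 CPM in VEZF1-WT libraries 1, 2 and 3. In VEZF1-2A libraries 1, 2 and 3 it was at 17.0, 14.6 and 21.4 CPM. Replicate 3 was again the highest library in each group, and the other libraries of the groups overlapped. The log2 fold change was 0.03 (SE 0.141, 95% interval -0.29 to 0.34), with an unadjusted edgeR p of 0.859 and an exact permutation p of 0.9. The coefficient of variation over the 6 libraries, 15.1%, was the largest of the 9 tested genes, ahead of NOTUM with 13.1%. On the opposite strand, AC078860.3 shares 208 exon bases with LGR5, 3.98% of the LGR5 exon length, and had 4.95% as many counts.

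GLUL, which encodes glutamine synthetase, was at 141.9, 133.9 and 156.0 CPM in VEZF1-WT libraries 1, 2 and 3. In VEZF1-2A libraries 1, 2 and 3 it was at 124.6, 141.4 and 139.6 CPM. The highest library was VEZF1-WT and the lowest VEZF1-2A, and the 4 others were interleaved. The means were 143.9 ± 11.2 and 135.2 ± 9.20 CPM (SD, n = 3 each). This was the largest difference of the 9, with a log2 fold change of 0.09 (SE 0.074, 95% interval -0.07 to 0.25, unadjusted edgeR p = 0.247, exact permutation p = 0.4), and it was smaller than the spread between replicates, like those of all tested genes but CTNNB1.

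**Figure D2:**
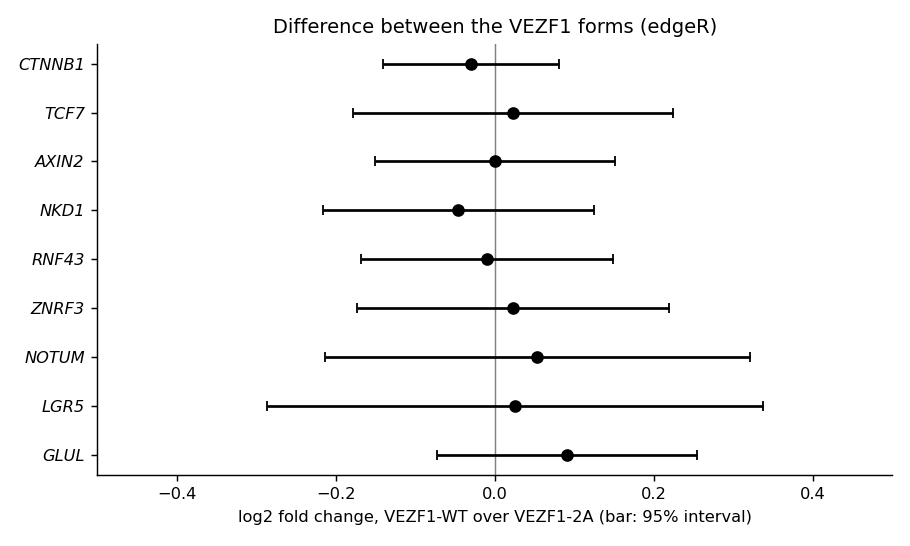
Log2 fold change of VEZF1-WT over VEZF1-2A (horizontal axis) for the 9 tested genes, from edgeR, with bars for the 95% interval. All 9 points lie between -0.05 and 0.09 and all 9 bars cross 0, the longest being that of LGR5, from -0.29 to 0.34.

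Libraries differed in how many of the 9 tested genes lay above their own mean over the 6 libraries. In VEZF1-WT replicate 2, 8 of 9 lay below it (all but RNF43, beside 51.8% of all genes tested), and in VEZF1-2A replicate 2, 8 of 9 did (all but GLUL, beside 51.6%). In VEZF1-2A replicate 3, 8 of 9 lay above it (all but RNF43, beside 49.9%). In the other libraries 4 to 6 of the 9 lay above. Each group thus held a library with 8 of 9 below, while the library with 8 of 9 above was in VEZF1-2A. These tallies include values almost at the mean. On the log2 scale GLUL was at 0.000395 in VEZF1-2A replicate 3. In VEZF1-2A replicate 2, CTNNB1 was at -0.00302 and ZNRF3 at -0.00737. The highest value of 4 of the 9 genes was in VEZF1-2A replicate 3, of 3 in VEZF1-WT replicate 3, and of 1 each in replicate 1 of either group. The lowest value of 3 was in VEZF1-WT replicate 2, of 3 in VEZF1-2A replicate 1, of 2 in VEZF1-2A replicate 2 and of 1 in VEZF1-WT replicate 3. NOTUM, LGR5 and ZNRF3 were highest in replicate 3 of both groups, 3 of 9 genes beside 20.03% of all genes tested. AFP, a fetal liver protein among the liver markers, was also highest there, at 3643 and 3482 CPM beside 1763 to 2065 CPM in the other 4 libraries. So was FGB, a fibrinogen chain, at 804.3 and 734.6 beside 356.7 to 460.1 CPM. The liver markers TTR, APOA1 and APOB were highest there too, and TF was highest in replicate 3 within each group. Not all liver markers were: ALB, SERPINA1 and HNF4A were highest in VEZF1-2A replicate 2, at 3672, 3254 and 156.8 CPM. Within VEZF1-WT, ALB, SERPINA1 and HNF4A were highest in replicate 3. The part of AFP and FGB in the levels of NOTUM and LGR5 was not tested. Without the replicate 3 libraries the differences of NOTUM and LGR5 were 0.04 and 0.07 on the log2 scale, NKD1 and RNF43 turned positive at 0.02 and 0.05, and no gene of the 9 passed an unadjusted p of 0.05. In such bulk RNA, fewer cells that express a gene and less of its RNA per cell cannot be told apart.

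**Figure D3:**
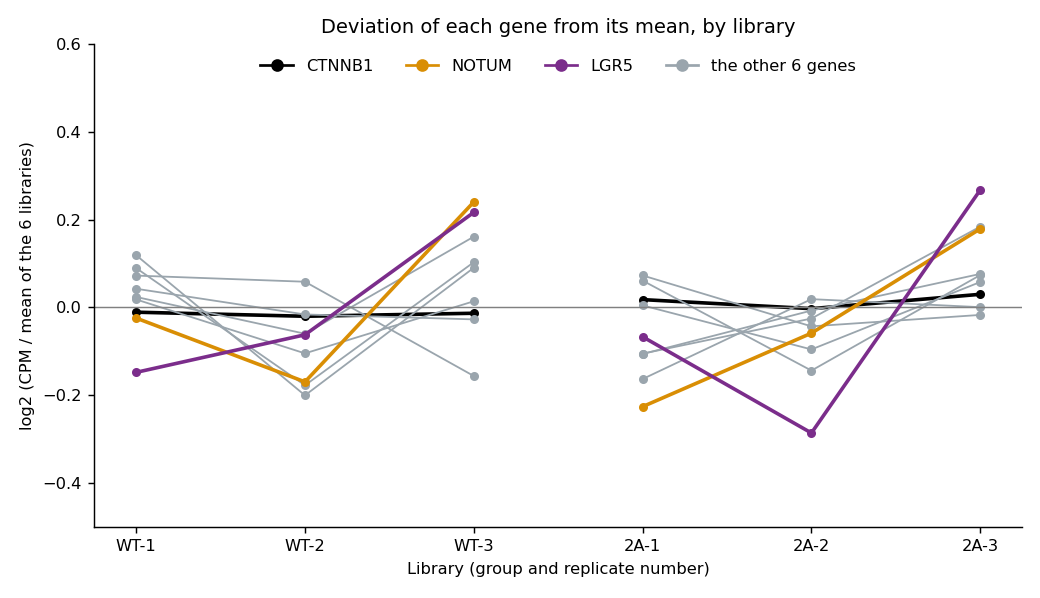
Log2 ratio of each tested gene's CPM to its mean over the 6 libraries (vertical axis) by library (horizontal axis), with lines joining the 3 libraries of a group to help follow a gene. NOTUM and LGR5 lie highest in replicate 3 of both groups, at 0.18 to 0.27, and CTNNB1 stays between -0.02 and 0.03.

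Levels were compared between genes as CPM per kilobase of exon, using the exon length in the table, which joins all annotated exons of a gene and so understates genes with long exons that are rarely used. NKD1 came first with 29.2 CPM per kilobase (27.1 to 33.1 over the 6 libraries). AXIN2 with 21.2 and RNF43 with 20.5 followed, and their ranges over libraries overlapped. CTNNB1 was next with 16.3, apart from its neighbours. GLUL with 11.04 and NOTUM with 9.91 overlapped each other. LGR5 with 3.41 overlapped both ZNRF3 with 3.82 and TCF7 with 2.86, which did not overlap each other. LEF1 was last with 0.0139. Of the feedback genes, NKD1, AXIN2 and RNF43 took the first 3 places, while NOTUM and ZNRF3 stood below CTNNB1 and GLUL.

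**Figure D4:**
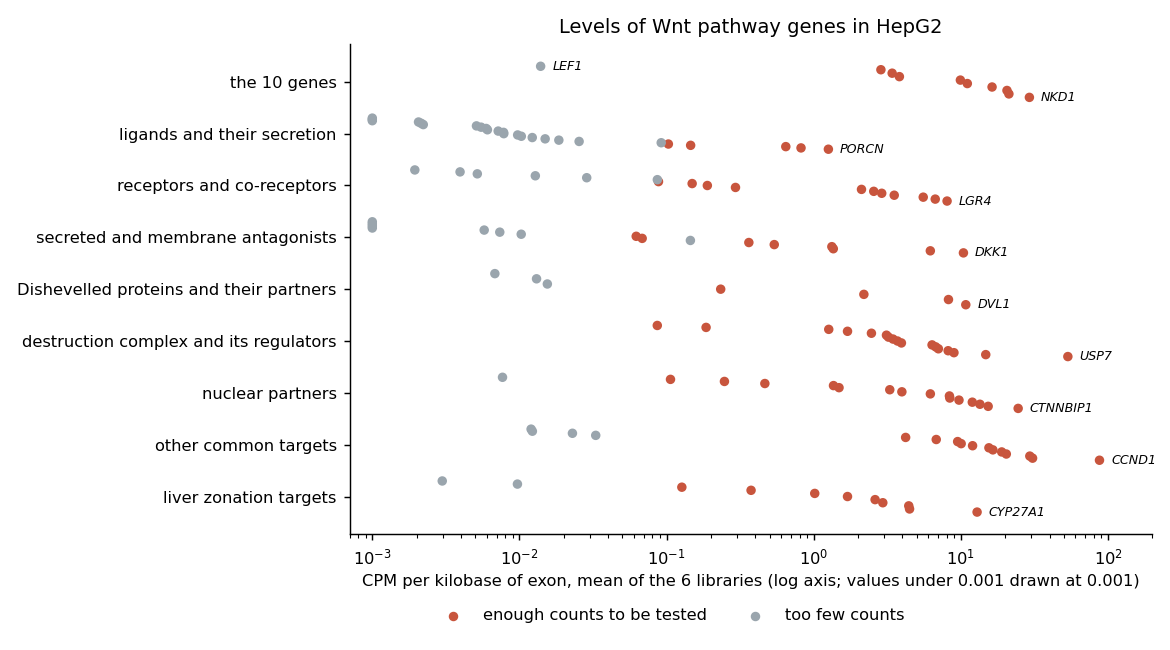
Mean CPM per kilobase of exon over the 6 libraries (horizontal log axis, values under 0.001 drawn at 0.001) for the 10 genes and for 125 other genes of the pathway in rows by role, in red where counts sufficed for a test and in grey where they did not. Ligands crowd the left, with PORCN highest at 1.26, while common targets reach 87.3 for CCND1.

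A further 125 genes of the pathway were listed by role to set the 10 beside the rest of the pathway. Of these, 81 could be tested, 52 had a mean under 1 CPM and 7 had no count in any library. The edgeR test called 0 of the 81 at an adjusted p under 0.05 and 1 at an unadjusted p under 0.05, beside 2.13% of all genes tested. The median log2 fold change was -0.01, with 36 positive and 45 negative. The groups did not overlap for 7 of the 81, of which 3 were higher in VEZF1-WT (background 3.50%) and 4 lower (background 3.86%). These were PYGO1, PYGO2 and CBY1, and FZD6, RYK, BTRC and TCF7L2. Apart from the genes fixed by the rule for named genes, the genes in these paragraphs were picked out after their values were seen.

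Most ligand genes had few or no reads in these cells. Of 25 genes for Wnt ligands, R-spondins and their secretion, 5 had enough counts to be tested and 21 had a mean under 1 CPM. PORCN, the enzyme that adds the lipid to Wnt proteins, had the highest level per length, at 1.26 CPM per kilobase. Its CPM was 3.51, 3.71 and 2.95 in VEZF1-WT libraries 1, 2 and 3 and 5.49, 4.27 and 2.78 in VEZF1-2A libraries 1, 2 and 3, with a difference of -0.30 on the log2 scale (unadjusted edgeR p = 0.196, exact permutation p = 0.5). The groups overlapped, through replicate 3 of VEZF1-2A. Among the ligands themselves, WNT7B had a mean of 4.16 CPM (2.29 to 5.61 over the 6 libraries), WNT3 2.75 CPM and WNT2B 1.80 CPM, the last sharing 2665 exon bases with ST7L on the opposite strand. WLS, the carrier that brings Wnt proteins to the surface, stayed between 0 and 0.0999 CPM. RSPO1 and RSPO3, ligands of the LGR receptors, had no count in any library. With counts taken as independent, this allows up to 0.104 CPM in the smallest library, and more if read pairs were counted as 2.

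Receptors were present. Of 17 genes, 11 were tested and 0 passed an unadjusted p of 0.05. LGR4, a relative of LGR5 that also binds R-spondins, was highest per length and stood at 2.23 to 2.67 times LGR5 in the 6 libraries. LGR4 was at 52.1, 46.1 and 57.4 CPM in VEZF1-WT libraries 1, 2 and 3 and at 46.1, 46.4 and 58.6 CPM in VEZF1-2A libraries 1, 2 and 3, again highest in replicate 3 of each group. LGR6, the third of these receptors, stayed between 0 and 0.0999 CPM. FZD6, a Frizzled receptor with the smallest p of this role, was at 13.4, 12.9 and 14.4 CPM in VEZF1-WT libraries 1, 2 and 3 and at 14.8, 15.2 and 15.2 CPM in VEZF1-2A libraries 1, 2 and 3. The FZD6 groups did not overlap, with a difference of -0.15 on the log2 scale (unadjusted edgeR p = 0.0925, exact permutation p = 0.1).

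Among 16 secreted and membrane antagonists, 8 were tested and 0 passed. DKK1, which blocks the LRP co-receptors, led them at 22.3, 20.7 and 28.5 CPM in VEZF1-WT libraries 1, 2 and 3 and at 20.8, 19.1 and 27.1 CPM in VEZF1-2A libraries 1, 2 and 3. Its highest library in each group was replicate 3, as for NOTUM and LGR5, and its log2 fold change was 0.10 (unadjusted edgeR p = 0.506, exact permutation p = 0.6). This order was seen also for LGR4, for further listed genes such as LRP6, FRAT2, SP5 and BIRC5, and in 20.03% of all genes tested. It was not shared by all listed pathway genes. CCND1, JAG1, MET, MYC, AHR, WNT7B and PORCN were instead lowest in replicate 3 of each group, as were further listed genes such as DVL1 and BCL9L. The share of all genes tested with this opposite order was not computed. APCDD1, which had the smallest p of this role, 0.421, stayed at or under 0.603 CPM.

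Of 7 genes for Dishevelled proteins and their partners, 4 were tested and 0 passed. DVL1, which relays the signal from Frizzled, had a log2 fold change of 0.00, and NKD2, the paralog of NKD1, one of -0.44 (unadjusted edgeR p = 0.198, exact permutation p = 0.3). NKD2 was at 0.549, 0.393 and 0.763 CPM in VEZF1-WT libraries 1, 2 and 3 and at 0.892, 0.749 and 0.724 CPM in VEZF1-2A libraries 1, 2 and 3. Its groups overlapped, and its level was far under that of NKD1.

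All 17 genes of the destruction complex and its regulators were tested and 0 passed. USP7, a deubiquitinase with beta-catenin and other proteins among its substrates, had the highest level per length, with means of 468.3 ± 14.04 and 449.8 ± 18.8 CPM (SD, n = 3 each) in VEZF1-WT and VEZF1-2A and a log2 fold change of 0.06. FRAT2, a GSK3-binding protein with the smallest p, had a log2 fold change of 0.23 (unadjusted edgeR p = 0.173, exact permutation p = 0.3). AXIN2 was at 2.96 to 3.52 times the level of AXIN1, its constitutive relative, per kilobase of exon, and AXIN1 differed by -0.01.

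Of 16 nuclear partners, 15 were tested and 1 passed an unadjusted p of 0.05, none an adjusted one. CTNNBIP1, an inhibitor of the binding of beta-catenin to TCF factors, was highest per length and had a log2 fold change of -0.03. PYGO1, a Pygopus protein that joins the beta-catenin complex, was the gene that passed, at 1.37, 0.842 and 1.15 CPM in VEZF1-WT libraries 1, 2 and 3 and 0.789, 0.700 and 0.633 CPM in VEZF1-2A libraries 1, 2 and 3. All VEZF1-WT libraries were higher, with a difference of 0.68 on the log2 scale (95% interval 0.08 to 1.28, unadjusted edgeR p = 0.0300, adjusted p = 0.9996, exact permutation p = 0.1). The exact permutation test could not go lower, and at this low level the edgeR call was lost without VEZF1-WT replicate 1 (p = 0.132), VEZF1-WT replicate 3 (p = 0.0676), VEZF1-2A replicate 2 (p = 0.0661), VEZF1-2A replicate 3 (p = 0.0773) or replicate 3 of both groups (p = 0.123). It was also lost in the DESeq2 test, with a p of 0.0603, and after down-sampling to the smallest library, with a p of 0.178. TCF7L2, a TCF factor well known in liver, was at 1.25 to 1.496 times the level of TCF7 per kilobase of exon and had a log2 fold change of -0.10 (unadjusted edgeR p = 0.159, exact permutation p = 0.1).

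Of 16 other common targets, 12 were tested and 0 passed. CCND1, the gene of cyclin D1, was highest per length, with means of 407.5 ± 33.1 and 424.0 ± 33.5 CPM (SD, n = 3 each) in VEZF1-WT and VEZF1-2A and a log2 fold change of -0.06. BAMBI, a decoy receptor of the TGF-beta family, had the smallest p of this role, 0.148, with a log2 fold change of -0.17. Of 11 targets tied to liver zonation, 9 were tested and 0 passed. CYP27A1, a bile acid synthesis enzyme, had the highest level per length and a log2 fold change of 0.00, and OAT, ornithine aminotransferase, had the smallest p, 0.178, with a log2 fold change of -0.14. CYP2E1 and CYP1A2, drug metabolism enzymes that perivenous hepatocytes express strongly, stayed at or under 0.195 and 0.0561 CPM, while GLUL of the same zone was never under 124.6 CPM.

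**Figure D5:**
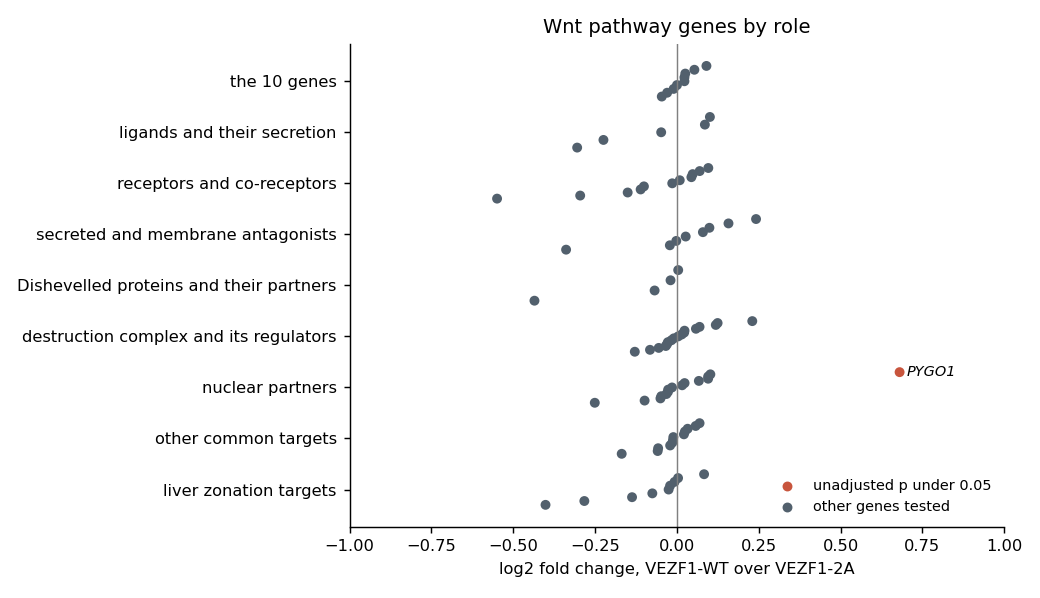
Log2 fold change of VEZF1-WT over VEZF1-2A (horizontal axis, edgeR) for the tested genes of the pathway in rows by role, each point 1 gene. The 9 of the 10 genes that could be tested lie between -0.05 and 0.09, and PYGO1, at 0.68, is the only point past an unadjusted p of 0.05.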

How the data were processed

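RNA-seq libraries of HepG2 cells with VEZF1-WT or VEZF1-2A, 3 of each, were compared. Groups and replicate numbers came from the sample labels. The authors deposited 1 table of raw read counts per gene, without normalization. RNA from an RNeasy kit went into SMARTER mRNA libraries. The aligner, counting program, annotation release and strand setting are not given in the sources used here. Gene spans equalled those of GENCODE 29 for 3 of the 10 genes, so the table's own spans and exon lengths were used. Broken entries on 5 lines (ANK2) were left out.

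Counts were analysed with edgeR 4.0.16 in R 4.3.3: filterByExpr by group (minimum count 10, minimum total 15), TMM scaling, glmQLFit and glmQLFTest, two-sided, with Benjamini-Hochberg adjustment over 19111 genes. For single genes an exact two-sided permutation test was added, on log2(CPM + 0.1). Totals were 28756765 to 57199396 counts (common biological coefficient of variation 9.71%). Among the tested Wnt genes, LGR5, with the lowest CPM, had the largest SE (0.141). NKD1, with the highest CPM, had a larger SE (0.077) than CTNNB1 (0.050). Counting errors are over reads, which are not independent molecules. No libraries of a group were duplicates (chi-square per degree of freedom 3.74 to 15.0).

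All 10 genes are named, and from 125 other pathway genes, per role, the one with the highest level per length and the one with the smallest p. The 10 genes and the lists were chosen with earlier results of these data known. Alternatives were other scalings, no filter, DESeq2 1.42.0, limma 3.58.1 voom, a replicate block, each library left out, down-sampling and removal of mitochondrial and ribosomal RNA genes. Code was tested on simulated data. Figures were drawn with matplotlib 3.10.9.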

Additional observations from a re-analysis of the deposited data

How the results depend on the processing

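None of the 9 tested Wnt genes passed an unadjusted p of 0.05 under any of the 17 alternatives (p from 0.109 to 0.999). Of the 153 differences so recomputed, 129 kept their direction and 24 changed sign, 15 of these on leaving out a library. AXIN2 changed sign with DESeq2 size factors (-0.000233), library size alone (-0.00263), the DESeq2 test (-0.000122), down-sampling (-0.00522), mitochondrial and ribosomal RNA genes left out (-0.00228) and, chosen after seeing the data, AXIN2 summed with the gene sharing its exon positions (-0.0028). RNF43 changed sign without the filter on low counts (0.00284), and without replicate 3 of both groups, also chosen after seeing the data, RNF43 (0.0478) and NKD1 (0.0201) did. With each library left out in turn, log2 differences ranged from -0.0386 to -0.0231 for CTNNB1, -0.0375 to 0.115 for TCF7, -0.0673 to 0.0381 for AXIN2, -0.106 to 0.0407 for NKD1, -0.0534 to 0.0602 for RNF43, -0.026 to 0.106 for ZNRF3, -0.0696 to 0.166 for NOTUM, -0.0987 to 0.189 for LGR5 and 0.0273 to 0.14 for GLUL. The libraries whose removal turned a sign were VEZF1-WT replicates 1 (TCF7, AXIN2, ZNRF3) and 3 (TCF7, RNF43, ZNRF3, NOTUM, LGR5) and VEZF1-2A replicates 1 (RNF43, ZNRF3, NOTUM), 2 (TCF7, AXIN2, LGR5) and 3 (NKD1). LEF1 could be fitted only without the filter (log2 difference -0.42, SE 1.28).

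Over all genes, the count at an adjusted p under 0.05, 0 in the report, was 16 without the filter, 3 with the DESeq2 test, 6 with the replicate block and 4 without replicate 3 of both groups. The count at an unadjusted p under 0.05, 408 in the report, was 896, 219, 825 and 833 in the same order, and 292 to 973 with each library left out, 973 without VEZF1-2A replicate 3. The count of other pathway genes called, 1 in the report, was 2 without the filter (WNT4 added), 0 with the DESeq2 test, 0 after down-sampling, 3 without replicate 3 of both groups (FRAT2, PORCN and TNFRSF19, without PYGO1) and 0 to 5 with each library left out, 5 without VEZF1-2A replicate 3. The cause was not tested.

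The replicate numbers are not stated to mark a shared culture or day. Same-numbered libraries deviated together with correlations of 0.0792, 0.144 and 0.362 across genes. Differently numbered libraries of the groups had correlations from -0.274 to 0.164, most of them negative. The highest of these, between VEZF1-WT replicate 2 and VEZF1-2A replicate 1, was above the 0.144 of the replicate 2 libraries. As pairing is not stated, the libraries were not taken as pairs in the main test, and the replicate block was run as an alternative. The replicate block changed the call of none of the 9 Wnt genes, and its term for the replicate number itself had an adjusted edgeR p of 0.0249 for NOTUM and 0.0208 for LGR5, as for 5.52% of the genes tested. LEF1 and most ligands did not pass the filter on low counts. Whether more depth would change this was not tested.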
